A study of Mus musculus with 6 samples.

Results

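Eosinophils are granulocytes whose granules carry cationic proteins, and their genes were followed here in GMPs, the granulocyte/macrophage progenitors of mouse bone marrow. The set was chosen by gene symbol and holds 6 genes: the granule protein genes Prg2, Prg3 and Epx, the ribonuclease genes Ear1 and Ear2, and the interleukin-5 receptor gene Il5ra. Of these, 4 genes had a probe set, 1 each, among 18193 genes with a probe set of a single symbol: Prg2, Prg3, Epx and Il5ra. Ear1 and Ear2 matched no probe set in the platform annotation used, neither alone nor together with other genes, and their levels were not analysed here. All 4 matched probe sets passed the filter on low values, which asked for 2 of the 6 arrays whatever their genotype. Il5ra exceeded its level on 6 arrays, Prg2 on 5, and Prg3 and Epx on 4, both WT arrays among them each time.

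Expression was measured on 6 Affymetrix mouse genome arrays, each with RNA from GMPs of a single mouse, in 3 genotypes of 2 mice. Wild-type mice (WT) were a male of 12 weeks and a female of 19 weeks. Mice lacking interferon regulatory factor 8 (IRF8 KO) were a female of 12 weeks and a male of 22 weeks. The double knockouts, without IRF4 as well as IRF8 (IRF4/8 DKO), were a male and a female of 16 weeks. All were of the BL6 strain, the labels name no treatment, and the sources used here do not say how the alleles were made. GMPs were sorted without lineage markers, IL-7 receptor and Sca1, and with Kit, CD34 and a high level of Fc gamma receptors II and III. Both IRF8 KO and IRF4/8 DKO lack IRF8, so IRF4/8 DKO against IRF8 KO is the comparison for loss of IRF4.

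IRF8 is a transcription factor of monocytes and dendritic cells whose level helps set the choice between blood lineages, and IRF4 is its closest relative. Eosinophils develop from progenitors under the transcription factor GATA-1, with C/EBP factors and PU.1, and under the cytokine interleukin-5. Granule protein genes are switched on while the cells are still dividing progenitors, well before they mature. Ear1 and Ear2 belong to a family of eosinophil-associated ribonucleases, and Il5ra is the receptor through which interleukin-5 is sensed.

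The upstream sequences of Prg3, Epx and Il5ra are shown because IRF8, IRF4 and GATA-1 bind DNA. Each of these genes had both a probe set and a promoter sequence. Their IRF4/8 DKO means were 1.31%, 6.05% and 46.9% of WT, with Il5ra the dimmest in WT. RefSeq promoters of build GRCm38.p6 matched 5 of the 6 genes, and Prg2 was the gene without a match. The 250 bases before the transcript start are given from 5′ to 3′ on the strand of the gene, and capitals mark GATAA or its reverse complement TTATC, the core bound by GATA factors. The Prg3 window is chr2:84987965-84988214 on the plus strand, that of Epx chr11:87875537-87875786 on the minus strand and that of Il5ra chr6:106749038-106749287 on the minus strand.
Prg3: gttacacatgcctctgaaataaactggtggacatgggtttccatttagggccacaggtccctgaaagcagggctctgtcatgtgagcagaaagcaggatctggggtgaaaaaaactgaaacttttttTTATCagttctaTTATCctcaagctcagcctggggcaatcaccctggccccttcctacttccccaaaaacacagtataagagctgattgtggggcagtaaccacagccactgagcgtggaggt
Epx: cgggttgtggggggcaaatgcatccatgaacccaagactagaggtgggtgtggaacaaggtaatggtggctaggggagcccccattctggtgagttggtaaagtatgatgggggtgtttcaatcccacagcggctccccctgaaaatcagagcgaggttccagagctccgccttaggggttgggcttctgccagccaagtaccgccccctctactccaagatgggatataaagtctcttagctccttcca
Il5ra: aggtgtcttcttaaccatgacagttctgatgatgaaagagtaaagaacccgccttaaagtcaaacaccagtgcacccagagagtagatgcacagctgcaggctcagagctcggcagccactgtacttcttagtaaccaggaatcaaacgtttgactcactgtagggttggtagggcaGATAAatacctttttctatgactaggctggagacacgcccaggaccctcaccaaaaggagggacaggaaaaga
Counted to the left end of each match, Prg3 held the GATAA core at 123 and at 111 bases before the start, both on the opposite strand, and Il5ra held it at 73 bases on the strand of the gene. None was found in Epx, Ear1 or Ear2, and 22.6% of all 32851 promoter windows of this length held at least 1. The letters AANNGAAA, a pattern bound by IRF factors, were searched on both strands and found at 2 places in Prg3, 138 and 213 bases before the start on the same and the opposite strand, and in none of the other 4 promoters, against 21.3% of all windows. TTGCNNAA, the C/EBP pattern, was in Ear1 and Ear2 (9.56% of all windows), and GAGGAA, the PU.1 core, in none of the 5 (23.3% of all windows). The 4 matches in Prg3 shared no bases with each other (0 overlapping pairs). In the gene order of RefSeq, Prg2 and Prg3 are near neighbours with 1 predicted gene, Gm39868, between them.

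Arrays give no read depth, so their number limits the precision. Median intensity per array ran from 34.1 to 45.3. The sort-gate gene Kit read 1680 to 2426 over the 6 arrays, Cd34 1401 and 1747 in WT against 440 to 669 in the knockouts, Fcgr3 1090 and 1259 against 2516 to 6315, and Il7r 4.31 to 27.1. Of the 5 gate genes measured, 0 passed the test in any comparison, where at most 0.299% of all probe sets were called. The 2 Irf8 probe sets read 507 to 3052 in WT and 934 to 4778 in the knockout arrays, and the 2 Irf4 probe sets 7.66 to 66.0 over all arrays. The sources used here do not place these probe sets against the deleted exons, and the values are therefore no check of the genotype labels. IRF8 KO arrays differed most among themselves, with r = 0.9122 across probe sets against 0.9683 in WT and 0.9519 in IRF4/8 DKO.

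Prg2 codes for eosinophil major basic protein, the main protein of the granule core. Its intensity, a normalized brightness on a linear scale, was 5863 and 3689 in WT (male, then female). It was 3029 in the female and 974 in the male IRF8 KO mouse. In IRF4/8 DKO it was 121 in the male and 17.9 in the female. The 3 genotypes did not overlap, in the order WT, IRF8 KO, IRF4/8 DKO. On the scale of the array, Prg2 lay above 98.9% and 97.1% of probe sets in WT, and above 66.0% and 38.4% in IRF4/8 DKO.

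Prg2 fell in IRF4/8 DKO to 1.46% of the WT mean (4776 ± 1537 against 69.6 ± 73.1, SD, n = 2 each). The log2 fold change, taken on log2(value + 10.5), was -6.25 ± 0.75 SE with a 95% confidence interval of -7.96 to -4.54 (limma adjusted p = 0.0285). That was the most negative change of all 29783 probe sets tested. Dim probe sets could not have fallen so far with 10.5 added, so ranks on this scale also depend on brightness. In IRF8 KO the Prg2 mean was 41.9% of WT, with a log2 fold change of -1.43 ± 0.75 SE that did not pass (limma adjusted p = 0.448). Between IRF4/8 DKO and IRF8 KO, Prg2 had a log2 fold change of -4.82 ± 0.75 SE (95% interval -6.53 to -3.11), again the most negative of all probe sets, and did not pass (limma adjusted p = 0.364). The call in IRF4/8 DKO against WT was lost without any 1 of the 4 arrays compared, as were the calls of all other probe sets. Such a fit leaves 1 array in a genotype. The log2 fold change of Prg2 was then -5.92 and -6.59 without WT replicate 1 or 2. It was -7.36 and -5.15 without IRF4/8 DKO replicate 1 or 2. With sex as a block, where 0 of all probe sets were called, Prg2 had a limma adjusted p of 0.0997 at a log2 fold change of -6.25.

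Prg3 codes for a close homologue of major basic protein, also a granule protein. The WT arrays read 876 and 402, replicate 1 first. Those of IRF8 KO read 249 and 28.6, and those of IRF4/8 DKO 11.5 and 5.30. No genotype overlapped another, as with Prg2. Against WT the log2 fold change was -5.02 ± 0.81 SE in IRF4/8 DKO (95% interval -6.86 to -3.18) and lay just outside the threshold (limma adjusted p = 0.0521). Of all probe sets, 10 had a more negative change in that comparison. In IRF8 KO against WT it was -2.59 ± 0.81 SE (limma adjusted p = 0.23), and in IRF4/8 DKO against IRF8 KO -2.43 ± 0.81 SE (limma adjusted p = 0.548). Since the IRF4/8 DKO mean, 8.39, is smaller than the added 10.5, the size of these changes depends on that constant. With only WT and IRF4/8 DKO fitted, Prg3 passed (limma adjusted p = 0.001). That fit called 476 of 29783 probe sets, against 89 in the main fit.

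Epx codes for eosinophil peroxidase, a haem enzyme of the granule matrix. It read 697 and 363 in WT. In IRF8 KO it read 139 in the female and 7.74 in the male. In IRF4/8 DKO it read 1.70 in the male and 62.4 in the female. Both WT arrays lay above all 4 knockout arrays, while the ranges of the knockout genotypes overlapped. The log2 fold change against WT was -3.30 ± 1.05 SE in IRF8 KO and -4.11 ± 1.05 SE in IRF4/8 DKO, and neither passed (limma adjusted p = 0.237 and 0.213). Between IRF4/8 DKO and IRF8 KO it was -0.81 ± 1.05 SE with an interval of -3.19 to 1.57 (limma adjusted p = 0.842), and it turned to 0.71 without IRF8 KO replicate 1 and to 0.48 without IRF4/8 DKO replicate 1. Its arrays differed 18.02-fold within IRF8 KO and 36.7-fold within IRF4/8 DKO, against 1.92-fold in WT. With the spread taken from only WT and IRF4/8 DKO, Epx passed in that comparison (limma adjusted p = 0.0174), as 1 of 476 calls against 89 in the main fit.

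Il5ra codes for the alpha chain of the interleukin-5 receptor, which binds the cytokine that drives eosinophil growth. The WT arrays read 85.7 and 38.2, those of IRF8 KO 32.4 and 44.7, and those of IRF4/8 DKO 26.9 and 31.2. The male WT array was the highest, and the female WT array lay within the IRF8 KO range. Apart from the male WT array, the readings lay above 44.1% to 52.4% of the probe sets of their arrays. The log2 fold change was -0.49 ± 0.45 SE in IRF8 KO and -0.79 ± 0.45 SE in IRF4/8 DKO against WT (limma adjusted p = 0.675 and 0.679). The interval for IRF4/8 DKO against WT, -1.81 to 0.22, does not include the log2 fold change of Prg2. Under IRF4/8 DKO against IRF8 KO the log2 fold change of Il5ra was -0.30 ± 0.45 SE (limma adjusted p = 0.866).

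**Figure D1:**
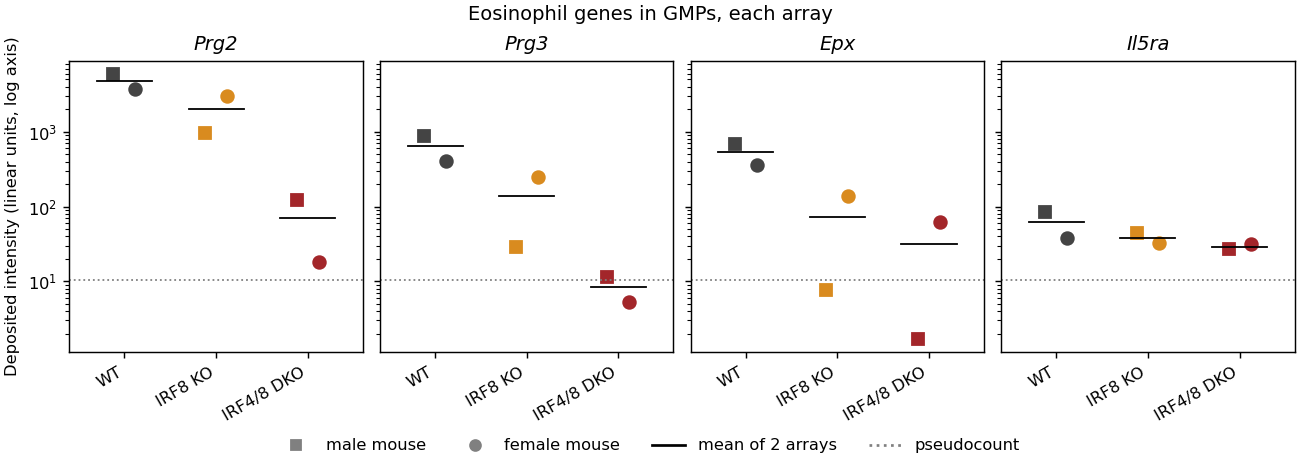
Deposited intensity (log axis) of Prg2, Prg3, Epx and Il5ra in each array by genotype, with squares for male and circles for female mice, bars for the mean of 2 arrays and a dotted line at the pseudocount of 10.5. Prg2 runs from 5863 and 3689 in WT to 121 and 17.9 in IRF4/8 DKO, Epx overlaps between the knockout genotypes, and Il5ra stays between 26.9 and 85.7.

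Counted over the 4 genes, 1 was called lower in IRF4/8 DKO against WT, where 0.299% of all probe sets were called and 0.208% were called lower. In IRF8 KO against WT 0 of 4 were called by limma, where 0.0302% of all probe sets were called and 0.0201% were called lower. Of the 4 genes, 2 (Prg3 and Epx) had an unadjusted p under 0.05 there, as had 4007 of all probe sets (13.5%). In IRF4/8 DKO against IRF8 KO 0 of 4 were called by limma, as were 0% of all probe sets, with 2 of the genes (Prg2 and Prg3) and 2538 of all probe sets (8.52%) at an unadjusted p under 0.05. All 4 genes had both IRF4/8 DKO arrays below both WT arrays, a pattern found in 25.3% of all probe sets. In IRF8 KO against WT, 3 of 4 did so, against 25.9% of probe sets, and in IRF4/8 DKO against IRF8 KO also 3 of 4, against 17.3%. The median log2 fold change of the 4 was -4.56 in IRF4/8 DKO and -2.01 in IRF8 KO against WT, beside 0.03 and 0.04 over 13267 genes. Both of these comparisons share the WT arrays.

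**Figure D2:**
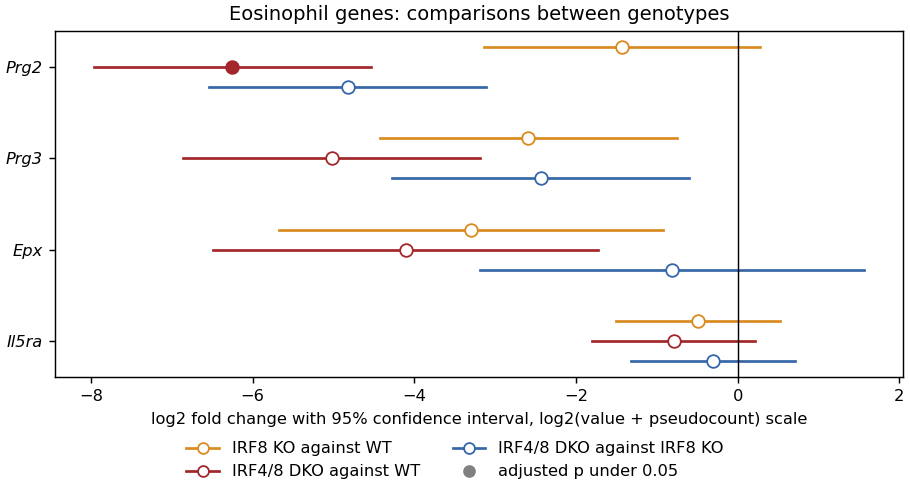
Log2 fold change of each gene in the 3 comparisons, with 95% confidence intervals from limma (2 arrays in each genotype); a filled point passed at an adjusted p under 0.05. Prg2 in IRF4/8 DKO against WT (-6.25) is the one filled point, and the intervals of Il5ra span 0 in all 3 comparisons.

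The mice of a genotype differed in sex and, in WT and IRF8 KO, in age. In WT all 4 genes were higher in the mouse of 12 weeks than in that of 19 weeks, and in IRF8 KO Prg2, Prg3 and Epx were higher at 12 than at 22 weeks. Both IRF4/8 DKO mice were 16 weeks old. Prg2 and Prg3 read lower in both than in the IRF8 KO mouse of 22 weeks, the oldest of the series, while Epx read higher than there in the female (62.4 against 7.74) and lower in the male. Between male arrays, Prg2 differed by -2.58 on the log2 scale in IRF8 KO against WT, and between female arrays by -0.28. For Prg3 these differences were -4.50 and -0.67, and for Epx -5.28 and -1.31. In IRF4/8 DKO against WT, Prg2 differed by -5.48 between males and -7.03 between females, Prg3 by -5.34 and -4.71, and Epx by -5.86 and -2.36. With 1 array per sex and genotype, the part of sex and age in these differences was not tested beyond the fits with each as a term. With age as a covariate both Prg2 and Prg3 passed in IRF4/8 DKO against WT (limma adjusted p = 0.00417 and 0.00275). That fit called 229 of all probe sets in this comparison, against 89 in the main fit.

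For most other ribonucleases of the Ear family the annotation used paired no probe set with the name. Any of their probe sets among the 9160 without a listed symbol could not be assigned here. Eosinophil-associated ribonucleases are encoded by a cluster of near-identical genes, so that a probe set for one can read several. Of 12 further family names searched, Ear3, Rnase2a and Rnase2b had a probe set of a single symbol, and Ear3 alone passed the filter. The Ear3 probe set is of a kind that the manufacturer marks as open to binding unrelated or related transcripts, so its signal cannot be given to 1 gene. The WT arrays read 285 and 53.1, those of IRF8 KO 4.32 and 11.2, and those of IRF4/8 DKO 9.32 and 38.4, with both WT arrays above all others. The log2 fold change was -2.94 ± 0.72 SE in IRF8 KO and -2.14 ± 0.72 SE in IRF4/8 DKO against WT (limma adjusted p = 0.155 and 0.384).

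Of the transcription factors of the eosinophil course, Gata2 and Ikzf2 fell in IRF4/8 DKO. Gata2, a GATA factor of stem, mast and eosinophil progenitors, read 1533 and 615 in the WT arrays, 117 and 300 in those of IRF8 KO, and 32.3 and 28.1 in those of IRF4/8 DKO. The genotypes did not overlap, and the log2 fold change in IRF4/8 DKO against WT was -4.60 ± 0.59 SE (limma adjusted p = 0.0285). Its other probe set had the same sign. Ikzf2, the gene of the factor Helios, had means of 347 in WT and 21.5 in IRF4/8 DKO, a log2 fold change of -3.48 ± 0.45 SE (limma adjusted p = 0.0285). Gata1 read 282 and 61.1 in WT and 1.62 to 13.1 in the 4 knockout arrays, without overlap, and did not pass (limma adjusted p = 0.108 in IRF8 KO and 0.103 in IRF4/8 DKO). Zfpm1, whose protein FOG-1 is a GATA-1 partner that restrains eosinophil fate, had log2 fold changes of -0.23 ± 0.50 SE in IRF8 KO and 0.02 ± 0.50 SE in IRF4/8 DKO against WT (limma adjusted p = 0.882 and 0.996), and its other probe set had the opposite sign in the latter. Over 13 measured factors of 14 listed, 0 passed in IRF8 KO against WT and 2, both lower, in IRF4/8 DKO against WT, with medians of 0.31 and 0.02. Cebpe, a C/EBP factor of granule maturation, had no probe set of a single symbol.

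The partners of the interleukin-5 receptor included no called gene. Csf2rb, the beta chain that carries the signal for interleukin-3, interleukin-5 and GM-CSF, read 1480 and 1891 in WT and 2311 to 2959 in the knockout arrays (log2 fold change 0.54 ± 0.27 SE in IRF8 KO and 0.74 ± 0.27 SE in IRF4/8 DKO, limma adjusted p = 0.418 and 0.427). Il3ra, the alpha chain for interleukin-3, read 283 and 163 in the WT arrays, 388 and 2406 in those of IRF8 KO, and 462 and 1828 in those of IRF4/8 DKO, the WT arrays being the lowest. Over 10 measured members of 12, 0 passed in any comparison, where at most 0.299% of all probe sets were called. The median log2 fold change was 0.52 in IRF8 KO and 0.04 in IRF4/8 DKO against WT. An unadjusted p under 0.05 was found for 1 and 4 of them, against 13.5% and 9.05% of all probe sets.

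Genes of mature eosinophils were in part below the filter. Ccr3, the eotaxin receptor, Ltc4s and Ptgdr2 did not pass it, and Il1rl1 had no probe set of a single symbol. Siglecf, an inhibitory receptor of eosinophils, had means of 1135, 987 and 986 in WT, IRF8 KO and IRF4/8 DKO, with a log2 fold change of -0.27 ± 0.45 SE in IRF4/8 DKO against WT (limma adjusted p = 0.916). Alox15, a lipoxygenase of eosinophils, read 178 and 58.8 in the WT arrays, 80.2 and 11.2 in those of IRF8 KO, and 11.2 and 13.9 in those of IRF4/8 DKO (-2.32 ± 0.70 SE against WT, limma adjusted p = 0.322). Adgre1, the F4/80 antigen of eosinophils and macrophages, rose 8.62-fold in IRF4/8 DKO (limma adjusted p = 0.0342) and is counted with the monocyte markers too. In IRF8 KO it was 4.69-fold higher than in WT and did not pass (limma adjusted p = 0.0988). Of 8 measured genes of 12, 1 passed, higher, in IRF4/8 DKO and 0 in IRF8 KO, beside 0.299% and 0.0302% of all probe sets.

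In sorted bulk cells, fewer cells of a type and less RNA per cell cannot be told apart, and marker levels of other lineages are therefore given beside the eosinophil genes. Summed over the 4 genes, which Prg2 dominates, intensity was 7522 and 4492 in the WT arrays, 3450 and 1055 in those of IRF8 KO, and 161 and 117 in those of IRF4/8 DKO. The sum over 10 measured basophil and mast cell markers of 14 was 6752 to 8831 in WT, 4232 to 4472 in IRF8 KO and 3784 to 3993 in IRF4/8 DKO. Kit, also a gate gene, and Hdc made up 45.4% to 51.4% of it in WT and 79.4% to 90.3% in the knockouts. Without these 2, left out after their values were seen, the other 8 summed to 3284 to 4822 in WT, 521 to 874 in IRF8 KO and 387 to 508 in IRF4/8 DKO. Of these markers 0 were called in IRF8 KO against WT, and 2 fell in IRF4/8 DKO, the protease gene Cpa3 and the Fc receptor gene Ms4a2. Of all probe sets, 0.0302% and 0.299% were called in these comparisons. Ms4a2 had a log2 fold change of -3.24 ± 0.64 SE in IRF8 KO (limma adjusted p = 0.101) and -4.16 ± 0.64 SE in IRF4/8 DKO. The median log2 fold change of the list was -1.03 in IRF8 KO and -1.50 in IRF4/8 DKO. Cpa3 read 1526 and 537 in the WT arrays, 68.9 and 49.5 in those of IRF8 KO, and 11.9 and 10.9 in those of IRF4/8 DKO, with no overlap. The mast cell protease genes Tpsb2, Tpsab1 and Mcpt4 did not pass the filter. Of 8 erythroid markers 0 were called, with medians of -1.97 and -2.39, and of 5 megakaryocyte markers 1, Pf4, fell in IRF4/8 DKO, with medians of -1.11 and -2.36. Neutrophil markers had medians of 0.58 and 0.50 over 13 genes, and 1, Mmp8, was called higher in IRF4/8 DKO. Among 11 monocyte and macrophage markers, 1 (Ly86) was called lower in both comparisons and 4 (Ccr2, Mpeg1, Adgre1 and Cd14) higher in IRF4/8 DKO. In IRF8 KO against WT these 4 had log2 fold changes of 2.79, 1.76, 2.23 and 0.23, short of the threshold. The 4 lymphoid markers measured had 0 calls. Over 13267 genes, 46.9% lay lower in IRF8 KO and 47.5% in IRF4/8 DKO. The part of any of these cell types in the eosinophil values was not tested.

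**Figure D3:**
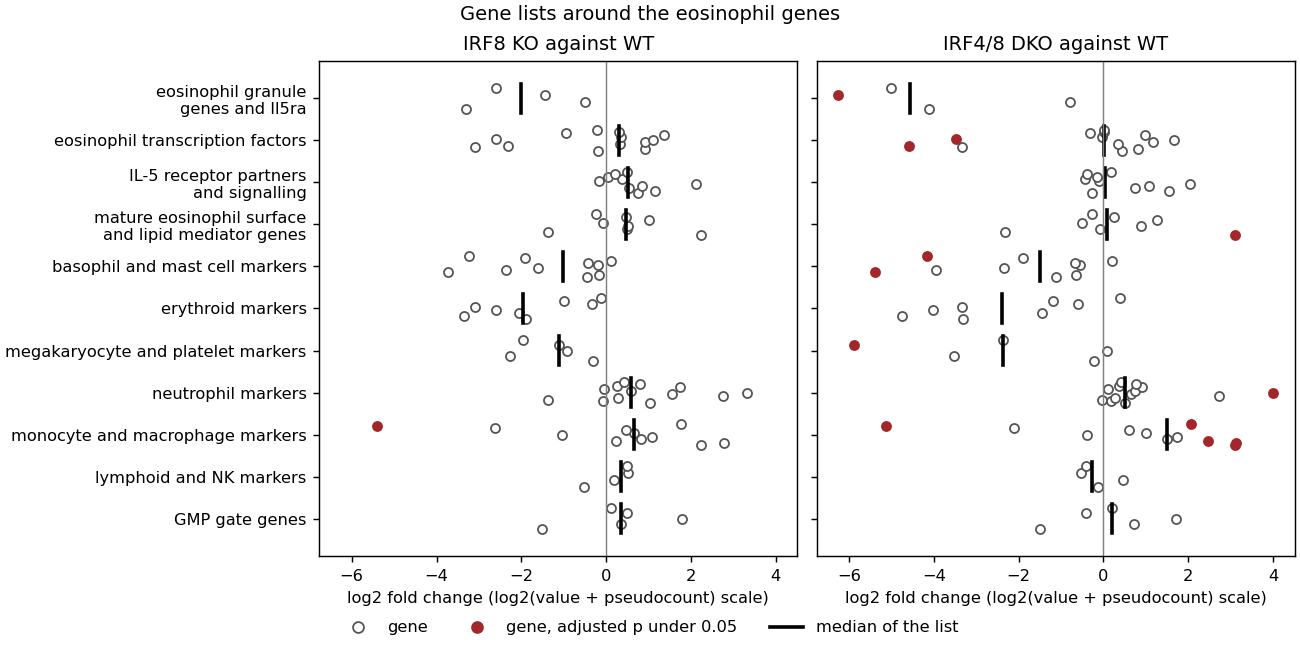
Log2 fold change of every measured gene of 11 lists in IRF8 KO (left) and IRF4/8 DKO (right) against WT; red points passed at a limma adjusted p under 0.05 and black bars mark list medians. The eosinophil genes have medians of -2.01 and -4.56, with basophil, erythroid and megakaryocyte markers also left of 0 and neutrophil markers right of it.

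Likeness to the eosinophil genes was measured as Pearson's r over the 6 arrays with the mean of the 4 genes, each standardized on the log2 scale. Among themselves the genes had r of 0.92 for Prg2 with Prg3, 0.87 for Prg3 with Epx, 0.64 for Prg2 with Epx, and 0.61 to 0.67 for Il5ra with the others. Of 13263 other genes, the closest was Kcnj5, a potassium channel gene, at r = 0.9978, which fell in IRF4/8 DKO (log2 fold change -3.90, limma adjusted p = 0.0447). It read 381 and 136 in the WT arrays, 78.95 and 24.2 in those of IRF8 KO, and 5.51 and 5.48 in those of IRF4/8 DKO. Next were Itga2b, the integrin CD41 of megakaryocytes (r = 0.9844), the tetraspanin gene Tspan33 (0.9831), the adhesion receptor gene Adgrl2 (0.9815) and the transporter gene Slc35d3 (0.9806). The mast cell protease gene Cpa3 ranked 13, Gata2 103 and Gata1 105, while Csf2rb ran opposite to the profile (r = -0.9059). With the genotypes as clusters of 2 arrays, these values describe order only, and 42 genes had r over 0.95.

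**Figure D4:**
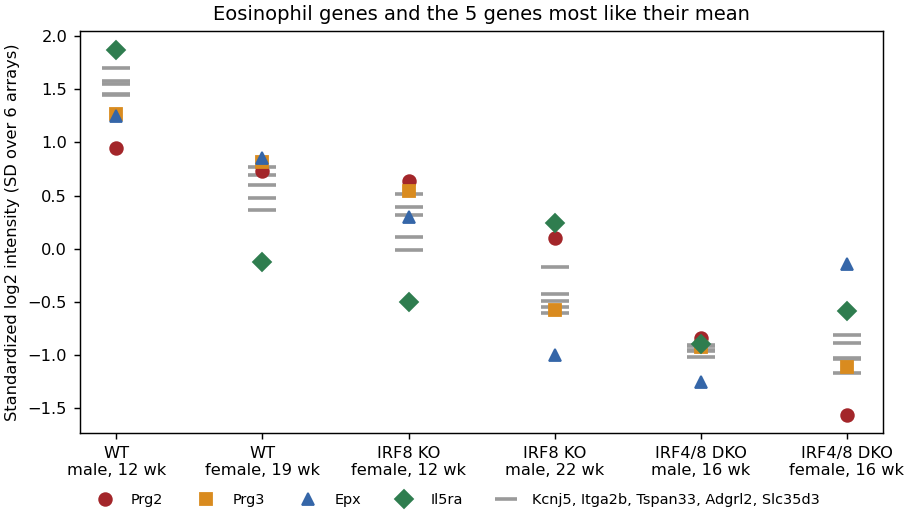
Standardized log2 intensity of Prg2, Prg3, Epx and Il5ra (coloured markers) and of the 5 genes closest to their mean (grey bars) in each of the 6 arrays, labelled by genotype, sex and age. The grey bars lie highest in the male WT array of 12 weeks and lowest in both IRF4/8 DKO arrays. Epx departs from that order, with the female IRF4/8 DKO array above the male IRF8 KO array. Il5ra keeps these ends but lies higher in the male IRF8 KO array than in the female WT array.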

How the data were processed

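Expression came as intensity, a linear value per probe set that the authors made after normalization with dChip 1.3 from perfect-match minus mismatch signal, per the series' design text; the sources used here do not name the baseline or say how low values were treated. Each value plus 10.5 (the 25th percentile of all values) was put on the log2 scale, so changes of dim genes come out too small. Of 45037 probe sets, 29783 exceeded the 40th percentile of the array on 2 arrays or more and were tested. Symbols were those of GEO's platform annotation, brought up to date by gene identifier with RefSeq (GRCm38.p6): 34945 probe sets had a single symbol, 932 several and 9160 were not listed. In lists, a gene's brightest kept probe set stands for it.

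All 3 genotypes entered a single limma 3.58.1 fit (R 4.3.3, empirical Bayes with trend, 3 residual degrees of freedom, no covariates), with Benjamini-Hochberg adjustment across the tested probe sets and calls under 0.05. The spread behind each p-value was pooled over the 3 genotypes and drawn towards that of other probe sets (5.841 prior degrees of freedom). It comes from 2 mice per genotype, all of this series. The alternatives changed the pseudocount (3.9 or 39.23), the filter (none, or the 60th percentile), the scaling (quantile or median), the trend, the genotypes fitted and the covariates (sex, age, replicate number), or left out an array. Genes, lists and rules were chosen with earlier results of these data known. Named were the 4 genes, list genes past the threshold or lowest in p, 5 regulators whatever their values and the 5 genes most like the set. Il3ra, Siglecf, Alox15, Cebpb, Spi1 and genes under the filter were picked after their values were seen.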

Additional observations from a re-analysis of the deposited data

How the results depend on the processing

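The direction of Prg2 and Prg3 was the same under the 17 alternatives in all 3 comparisons, as was that of Epx against WT and, under the 16 that kept it, of Il5ra, which the 60th percentile filter left out. Sizes in IRF8 KO against WT moved more: without IRF8 KO replicate 1 or 2, Prg2 was -2.24 or -0.62 (from -1.43), Prg3 -3.95 or -1.22 (from -2.59) and Epx -4.82 or -1.78 (from -3.30), while Il5ra was -0.001115 or -0.98 without WT replicate 1 or 2 (from -0.49). In IRF4/8 DKO against WT, Il5ra was -0.30 or -1.28 without these WT arrays (from -0.79). Against IRF8 KO, Prg3 was -1.07 or -3.80 without IRF8 KO replicate 1 or 2 (from -2.43). In that comparison Epx ran from -2.33 without IRF8 KO replicate 2 to 0.71 without IRF8 KO replicate 1, and was 0.48 without IRF4/8 DKO replicate 1; the cause was not tested. The count of the 4 genes called in IRF4/8 DKO against WT was 1. It was 0 without the filter, 0 without a variance trend and 0 with sex as a block, where Prg2 had limma adjusted p of 0.0568, 0.0626 and 0.0997. It was 2 with the 60th percentile filter, 2 with age, 2 with the replicate block (Prg2 and Prg3 each time) and 3 with only these genotypes fitted. Calls over all probe sets moved too, from 89 of 29783 in the main fit. They were 13 of 45037 without the filter, 27 without a variance trend and 0 with sex as a block. The 60th percentile filter gave 73 of 19707, age 229, the replicate block 216 and only these genotypes 476. Leaving out 1 array changed the number of calls up or down, over all probe sets as for the 4 genes. Such a fit leaves 1 array in a genotype, and its calls are not counted here. In IRF4/8 DKO against IRF8 KO the replicate block called Prg2 (limma adjusted p = 0.0464), the only 1 of all probe sets called there. Deviations of same-numbered arrays correlated at 0.0411, 0.188 and 0.211 between genotypes. Whether the replicate numbers pair the mice was not settled by these values. Median centring moved the median of all probe sets by 0.221 in IRF4/8 DKO and 0.139 in IRF8 KO against WT. Of the calls, 69.7% and 66.7% were lower in these comparisons; median centring gave 57.8% and 3 of 6 calls, quantile normalization 69.5% and 56.7%. Signal near or below the pseudocount of 10.5 limits Prg3 in both IRF4/8 DKO arrays, Epx in IRF8 KO replicate 2 (7.74) and IRF4/8 DKO replicate 1 (1.70), and Prg2 in IRF4/8 DKO replicate 2 (17.9).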

Other observations

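Within each genotype, the array with the higher summed eosinophil signal had the lower summed neutrophil signal. The sum over 13 neutrophil markers was 46886 and 71343 in the WT arrays, 64384 and 87385 in those of IRF8 KO, and 61889 and 91778 in those of IRF4/8 DKO, replicate 1 first, beside eosinophil sums of 7522 and 4492, 3450 and 1055, and 161 and 117. The higher eosinophil sum was that of replicate 1 each time. In IRF4/8 DKO it was carried by Prg2 (121 and 17.9), while Epx (1.70 and 62.4) and Il5ra (26.9 and 31.2) were higher in replicate 2. With 3 pairs of arrays the pattern of the sums is a description, and it was not tested.

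Among 4567 kept probe sets without a listed symbol, the closest to the mean of the eosinophil genes (r = 0.9971 over 6 arrays) read 183 and 79.0 in the WT arrays, 64.4 and 31.8 in those of IRF8 KO, and 11.5 and 11.4 in those of IRF4/8 DKO.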
